A study of Rattus norvegicus with 24 samples.

Results

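The 10 genes described here are the classical markers of striatal interneurons: Sst, Npy, Nos1, Pvalb, Vip, Cck, Chat, Slc5a7, Lhx8 and Th. They were taken by symbol from the 23950 genes measured by RNA-Seq in the nucleus accumbens (NAc) of Sprague Dawley rat pups at postnatal day 14 (P14), and the rule used no measured value. The markers and the gene lists set beside them were, however, chosen with earlier results of these data known. The 24 libraries came from 4 pups in each of 6 groups, and the 4 pups of a group were drawn from separate litters. In the in utero oxycodone (IUO) groups, founder (F0) dams received oxycodone (oxy) by gavage at 10 mg/kg/day for 5 days, and the dose then rose in daily steps of 0.5 mg/kg/day over 10 days to 15 mg/kg/day. Dosing of these dams went on through mating, gestation and lactation until weaning, so IUO pups could also meet the drug in milk. In the postnatal oxycodone (PNO) groups, F0 dams received 15 mg/kg/day only from parturition until weaning, and saline (SAL) dams received saline. The F1 pups were the offspring of these dams, and the F2 pups came from F1 females that were bred with naive males and were not dosed themselves. Pups were male or female, picked at random, and the sex of a pup is not given. Values are FPKM, fragment counts scaled to the length of the transcript and to the mapped fragments of the library. The whole dissected tissue was sequenced, so fewer cells of a type and less RNA per cell cannot be told apart.

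The striatum, the NAc included, consists mostly of GABAergic projection neurons, and its interneurons are a small minority that shapes their firing. Neurons that contain somatostatin usually also contain neuropeptide Y and neuronal nitric oxide synthase and fire at low thresholds, whereas parvalbumin neurons are fast-spiking and inhibit projection neurons at the soma. Cholinergic interneurons are large, tonically active cells that supply most of the acetylcholine of the striatum, and smaller populations express vasoactive intestinal peptide, cholecystokinin or tyrosine hydroxylase.

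The cAMP response element, an 8-base palindrome bound by CREB, was looked for as the letters TGACGTCA in RefSeq windows of the GRCr8 build that run from 250 bases before to 50 bases after each annotated start. Because it is a palindrome, a match on one strand is a match on both. Of the 10 markers, 9 had a window (Lhx8 had 2), and 3 markers carried the motif. Of all 33469 windows, 612 (1.83%) carried it. The 30 bases around each match are printed because they show where each of these 3 markers holds the motif, and the capitals mark it. In Th the motif begins 69 bases upstream of the start, at position -69. In Nos1 it begins at position -9, and in Sst its first base is base 3 of the annotated transcript. The coordinates are chr1:207508269-207508298 on the minus strand for Th, chr12:44371828-44371857 on the minus strand for Nos1 and chr11:90461537-90461566 on the plus strand for Sst. A match in these letters is a description and not a measured binding site.
Th: cagaggggcttTGACGTCAgcctggccttt
Nos1: tgacgccaagtTGACGTCAaagacagaggc
Sst: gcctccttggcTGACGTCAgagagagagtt

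Markers of the projection neurons were present in all libraries, with Ppp1r1b (DARPP-32) between 167 and 549 FPKM and Penk (proenkephalin) between 81.5 and 326 FPKM. Markers of neighbouring regions were present as well and differed between libraries. Summed FPKM over 7 cortex markers ran from 10.48 to 369.98, over 6 thalamus markers from 17.9 to 298, over 7 hypothalamus markers from 3.99 to 262 and over 6 choroid plexus markers from 4.42 to 12227. The libraries poorest in cortex markers were F1 SAL replicate 3, F2 PNO replicate 1 and F1 SAL replicate 2, and the lowest thalamus sum of F1 PNO, 115, was above the lowest of every other group. FPKM summed over all genes ran from 535866 to 766781, highest in F2 PNO replicate 1 and F2 IUO replicate 4. Read depth is unknown, so no counting interval is given.

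The 10 markers spanned a wide range of levels. On the FPKM scale, which is per length, mean levels over the 24 libraries were 317 ± 63.6 (SD) for Sst, 131 ± 50.8 for Cck, 68.1 ± 17.9 for Npy and 24.5 ± 20.3 for Pvalb. They were 8.26 ± 3.74 for Lhx8, 4.17 ± 1.76 for Nos1, 3.29 ± 1.70 for Vip and 3.13 ± 1.44 for Slc5a7. The lowest means were 2.35 ± 1.32 for Chat and 1.77 ± 0.825 for Th. Sst exceeded Cck in 24 of 24 libraries, Cck exceeded Npy in 20, Npy exceeded Pvalb in 23 and Pvalb exceeded Lhx8 in 23. Lhx8 exceeded Nos1 in 21 libraries and Slc5a7 exceeded Chat in 21. Nos1 exceeded Vip in 12 of 24 and Vip exceeded Slc5a7 in 12 of 24, so the order of these 3 neighbours was not separated, and Chat exceeded Th in only 16. Variation between libraries was smallest for Sst, with a coefficient of variation of 20.1%, and largest for Pvalb, with 82.8%. The spread from lowest to highest library was 2.27-fold for Sst and 34.4-fold for Chat.

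**Figure D1:**
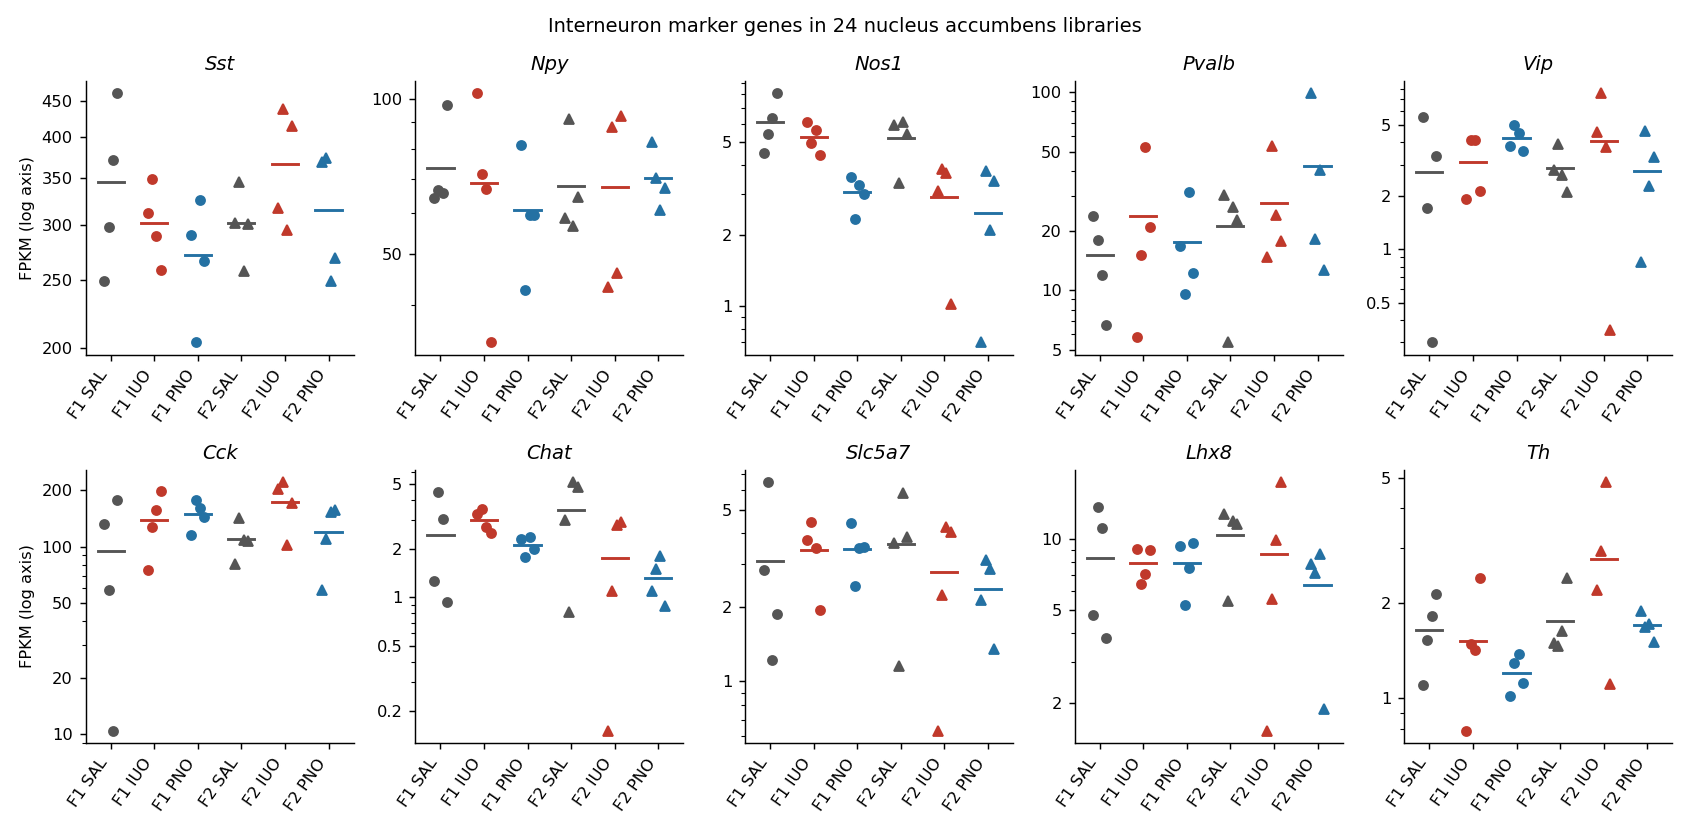
FPKM (log axis) of each of the 10 markers in the 4 libraries of each group, with 1 point per library, circles for F1, triangles for F2, and a bar at the group mean. Nos1 in F1 PNO lay under both other F1 groups with no overlap, whereas Sst and Npy overlapped between all groups.

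Each marker was compared between groups with limma on log2(FPKM + 0.1), fitted over all genes, and a gene was past the rule at an unadjusted p below 0.05 together with a ratio of mean FPKM of 1.5 or more. All 10 markers passed the filter on low values in every comparison. Over the 9 comparisons of 2 groups, 7 of 90 pairs of marker and comparison passed the rule and 5 of 90 had groups that did not overlap. After Benjamini-Hochberg adjustment over all genes tested, 0 of 90 pairs had a limma adjusted p under 0.05, and the smallest was 0.117. Among all genes such a p was held by 0.133% between F1 IUO and F1 PNO, 0.00576% between F2 PNO and F2 SAL, 0.0343% between the SAL generations, 0.0288% between the PNO generations and 0% in the other comparisons and in the interactions. By comparison, 0 of 10 markers passed between F1 IUO and F1 SAL (2.45% of all genes), 1 between F1 PNO and F1 SAL (4.48%), and 1 between F1 IUO and F1 PNO (7.08%). In F2, 2 passed between IUO and SAL (4.19%), 1 between PNO and SAL (4.54%), and 0 between IUO and PNO (3.38%). Between generations, 0 passed for SAL (2.72%), 1 for IUO (8.51%) and 1 for PNO (3.24%). In these 9 comparisons, in the same order, groups that do not overlap were found for 2.54%, 8.27%, 10.5%, 5.11%, 7.01%, 4.74%, 4.98%, 10.7% and 3.34% of all genes. The comparisons share groups, since the SAL libraries of a generation serve both treatments and the F1 PNO and F1 IUO libraries enter several tests.

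Nos1 (ENSRNOG00000001130), which encodes neuronal nitric oxide synthase and so the source of nitric oxide in these interneurons, accounted for 5 of the 7 pairs. In F1 SAL pups Nos1 stood at 4.51, 5.4, 6.34 and 8.08 FPKM. In F1 IUO pups it stood at 6.12, 4.95, 5.62 and 4.43 FPKM, and in F1 PNO pups at 3.57, 2.36, 3.29 and 3.01 FPKM. All 4 F1 PNO values lay under all 8 values of the other F1 groups. The F1 PNO mean of 3.06 ± 0.518 FPKM (SD, n = 4) was 1.99-fold lower than the F1 SAL mean of 6.08 ± 1.53. The log2 difference was -0.95 (SE 0.204), with an unadjusted limma p of 0.00104 and an adjusted p of 0.231, and the adjusted p ran from 0.114 to 0.946 over 17 alternatives. Of all genes in this comparison, 8.27% had groups that did not overlap. The exact permutation p was 0.0286, the smallest that 4 against 4 libraries can give.

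The Nos1 mean of F1 IUO, 5.28 ± 0.742 FPKM, was also 1.73-fold that of F1 PNO, with a log2 difference of 0.77 (SE 0.180), an unadjusted limma p of 0.00178 and an adjusted p of 0.117 (0.0964 to 0.476 over the alternatives). These groups did not overlap, as for 10.5% of all genes (exact permutation p = 0.0286). Between F1 IUO and F1 SAL the log2 difference in Nos1 was -0.18 (SE 0.199, limma adjusted p = 0.999). Thalamus markers moved with both F1 PNO comparisons: their summed level was 115 to 298 FPKM in F1 PNO, 17.9 to 148 in F1 SAL and 26.7 to 138 in F1 IUO, and 5 of the 6 passed the rule against F1 SAL, all higher in F1 PNO. Of these 6, Rora was at 0 in some libraries. With the thalamus markers as a covariate the log2 difference from SAL was -0.51 (unadjusted limma p of 0.0153) and the difference between F1 IUO and F1 PNO was 0.50 (p of 0.0594). Between F1 IUO and F1 PNO, 6 of 10 projection neuron markers and 5 of 6 hypothalamus markers tested were also higher by the rule in F1 IUO. Against F1 SAL, the F1 PNO libraries were lower by the rule in 3 of 6 hypothalamus markers and in 1 of 10 projection neuron markers. The rule was passed by 7.08% of all genes between F1 IUO and F1 PNO and by 4.48% between F1 PNO and F1 SAL. Over all 24 libraries the relation of Nos1 to the thalamus markers had r = -0.006 (permutation p = 0.977, adjusted p = 0.977) and rho = -0.235 (permutation p = 0.267, adjusted p = 0.501), and r was -0.483 without the 2 libraries farthest from the median of Nos1. To the projection neuron markers it had r = 0.336 (permutation p = 0.107, adjusted p = 0.305), rho = 0.528 (permutation p = 0.00882, adjusted p = 0.0661), r = 0.547 without those 2 libraries, and r of 0 when centred on group means. To the hypothalamus markers it had r = 0.203 (permutation p = 0.343, adjusted p = 0.606) and rho = 0.350 (permutation p = 0.0935, adjusted p = 0.330).

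In F2, Nos1 stood at 5.92, 3.35, 6.09 and 5.43 FPKM in SAL, at 3.11, 3.85, 3.68 and 1.02 in IUO, and at 0.70, 3.76, 2.11 and 3.43 in PNO. Both oxy groups overlapped SAL through F2 SAL replicate 2, the 1 low SAL library. The F2 IUO mean of 2.92 ± 1.30 was 1.78-fold lower than the F2 SAL mean of 5.20 ± 1.26, with a log2 difference of -0.93 (SE 0.405), an unadjusted limma p of 0.0455 and an adjusted p of 0.586 (0.412 to 0.911 over the alternatives). The F2 PNO mean of 2.50 ± 1.40 was 2.08-fold lower, with a log2 difference of -1.22 (SE 0.476), an unadjusted limma p of 0.0299 and an adjusted p of 0.427 (0.216 to 0.698). The exact permutation p was 0.0857 in each. Between F2 IUO and F2 SAL, 5 of 7 cortex markers were higher and 3 of 10 projection neuron markers lower by the rule, which 4.19% of all genes passed. With cortex markers as a covariate the log2 difference in Nos1 was -1.33, but its unadjusted p was at or above 0.05. Nos1 was thus not past the rule in that refit. Without F2 IUO replicate 4, the lowest IUO library, the log2 difference of F2 IUO from SAL was -0.51 (unadjusted limma p of 0.0606), and without F2 PNO replicate 1, the lowest PNO library, that of F2 PNO was -0.73 (p of 0.0273). For F2 IUO the unadjusted p was also at or above 0.05 without F2 IUO replicate 1 or F2 SAL replicate 1, 3 or 4, with differences from -1.01 to -0.84. For F2 PNO it was so without F2 PNO replicate 3 or F2 SAL replicate 1, 3 or 4, with differences from -1.22 to -1.13.

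Across generations, Nos1 was 1.81-fold lower in F2 IUO than in F1 IUO, with a log2 difference of -0.98 (SE 0.386), an unadjusted limma p of 0.0294 and an adjusted p of 0.285 (0.141 to 0.592). The groups did not overlap, as for 10.7% of all genes (exact permutation p = 0.0286), and without F2 IUO replicate 4 the log2 difference was -0.56. Without F1 IUO replicate 1 or 3 it was -0.91 and -0.95, with an unadjusted p above 0.05. In this comparison 6 of 10 projection neuron markers were lower and 3 of 7 cortex markers higher by the rule in F2 IUO, and 8.51% of all genes passed it. With the cortex markers as a covariate the difference in Nos1 was -1.49 (unadjusted limma p of 0.00471), and the part of the projection neurons in it was not tested. Nos1 in F2 SAL and F1 SAL differed by -0.23 on the log2 scale (SE 0.234, limma adjusted p = 0.804), and in F2 PNO and F1 PNO by -0.50 (SE 0.465, limma adjusted p = 0.948). The difference between generations was itself compared between treatments as an interaction. For Nos1 the interaction of generation with IUO against SAL was -0.75 (SE 0.476, limma adjusted p = 0.924), so a change of the IUO effect between generations was not shown. The values do not show a different effect of PNO in F1 and F2 either, with an interaction of -0.27 (SE 0.550, limma adjusted p = 0.9998). For IUO against PNO the interaction was -0.485 (SE 0.641, limma adjusted p = 0.949). With the cortex markers as a covariate it was -1.28 (unadjusted limma p of 0.00931, adjusted p = 0.146).

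**Figure D2:**
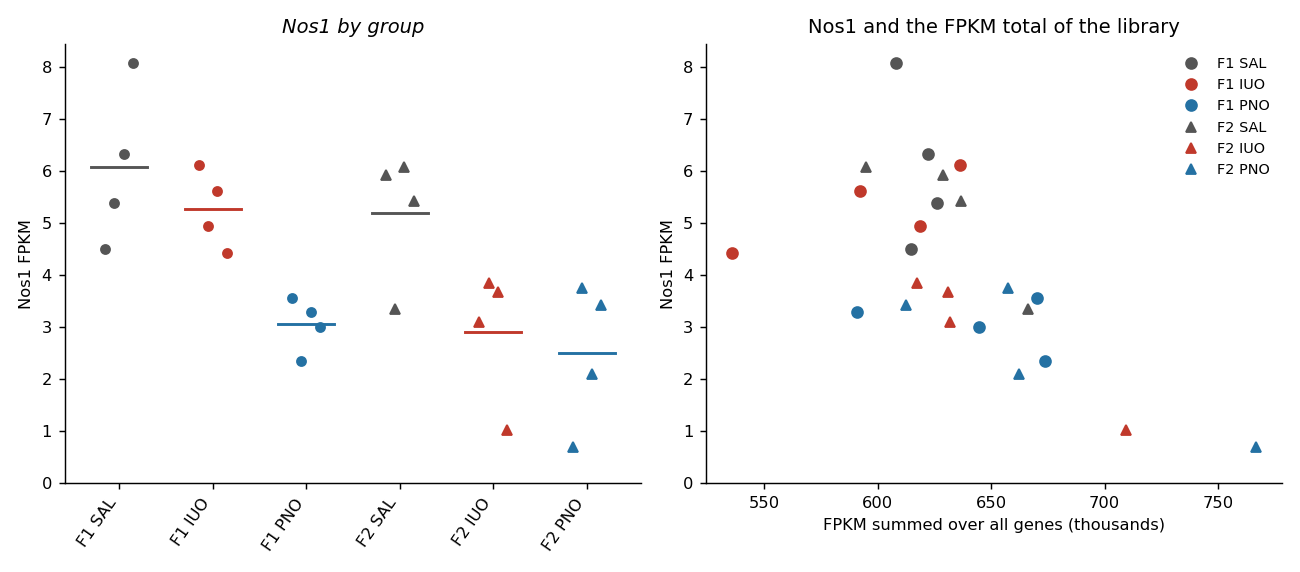
Left, FPKM of Nos1 in each library by group, with a bar at the mean of 4. Right, FPKM of Nos1 against the FPKM total of the library, with circles for F1 and triangles for F2. The libraries with the highest totals, F2 PNO replicate 1 and F2 IUO replicate 4, had the lowest Nos1 values, 0.70 and 1.02 FPKM.

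The level of Nos1 followed the FPKM total of the library, which is a property of the whole library and not of a gene. Over the 24 libraries r was -0.766 (permutation p = 3e-05, adjusted p = 0.0006 over 20 relations of markers with library measures), and rho was -0.579 (permutation p = 0.00336, adjusted p = 0.0672). Without the 2 libraries farthest from the median r was -0.450, and with values centred on group means it was -0.710 (permutation p = 0.00984, adjusted p = 0.0984). It was the only 1 of the 20 relations with an adjusted p of r under 0.05, and the measures were chosen after seeing the data. With the total as a covariate, the log2 difference in Nos1 was -0.87 for F1 PNO against SAL (unadjusted limma p of 0.00575), -0.66 for F2 IUO against SAL (p of 0.0110), -0.61 for F2 PNO against SAL (p of 0.0491), -0.62 for F2 IUO against F1 IUO (p of 0.191) and 0.83 for F1 IUO against PNO (p of 0.00419). The first 4 were smaller in size than without the covariate and the last was larger. In the same refit of F2 IUO against F1 IUO, Th passed the rule at 1.48 (unadjusted limma p of 0.00455, adjusted p = 0.412), beside 0.74 without the covariate. Among the genes most like Nos1 over the 24 libraries were Man2a2, a Golgi mannosidase (r = 0.950), and Ccdc6 (r = 0.935). Neither of these marks an interneuron.

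Sst (ENSRNOG00000001837) and Npy (ENSRNOG00000046449), the peptides that the same low-threshold neurons release, passed the rule in no comparison. Sst stood between 249 and 462 FPKM in F1 SAL, 258 and 349 in F1 IUO, 204 and 325 in F1 PNO, 257 and 345 in F2 SAL, 295 and 439 in F2 IUO and 249 and 373 in F2 PNO. Npy stood between 64.4 and 97.3 FPKM in F1 SAL, 33.8 and 102 in F1 IUO, 42.6 and 81.4 in F1 PNO, 56.7 and 91.5 in F2 SAL, 43.2 and 92.7 in F2 IUO and 60.8 and 82.5 in F2 PNO. All of these ranges overlapped. The log2 difference between F1 PNO and F1 SAL was -0.33 for Sst (SE 0.207, limma adjusted p = 0.503) and -0.29 for Npy (SE 0.201, limma adjusted p = 0.546). In F2 the difference of PNO from SAL was 0.05 for Sst (SE 0.165, limma adjusted p = 0.928) and 0.07 for Npy (SE 0.167, limma adjusted p = 0.897).

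Sst and Npy varied together over the libraries, with r = 0.651 (permutation p = 0.00045, adjusted p = 0.00506 over 45 pairs of markers) and rho = 0.637 (permutation p = 0.00104, adjusted p = 0.00936). Centred on group means r was 0.701 (permutation p = 0.00027, adjusted p = 0.00607), and without the 2 libraries farthest from the median it was 0.537. The ratio of Sst to Npy in a library ran from 3.05 in F1 IUO replicate 1 to 7.64 in F1 IUO replicate 4, with a median of 4.60. Nos1, usually present in the same neurons, had no relation to either at an adjusted p under 0.05: r was -0.034 with Sst (permutation p = 0.875, adjusted p = 0.994, rho = 0.121, permutation p = 0.575), or -0.316 without the 2 libraries farthest from the median of Sst, and -0.048 with Npy (permutation p = 0.822, adjusted p = 0.994, rho = 0.118, permutation p = 0.580), or -0.097 without those farthest from the median of Npy. Both peptides were lower where thalamus markers were higher. For Sst r was -0.728 (permutation p = 3e-05, adjusted p = 0.0009 over 60 relations with tissue markers, rho = -0.751, permutation p = 4e-05) and -0.633 without the 2 libraries farthest from the median. For Npy r was -0.674 (permutation p = 0.00027, adjusted p = 0.0054, rho = -0.726, permutation p = 0.00014) and -0.642 without those farthest from its median.

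Of the 15 listed partners of this class, the receptors for both peptides and the nitric oxide receptor subunits among them, 11 passed the filter in each comparison described here. Tacr1, the substance P receptor carried by these interneurons, passed the rule as lower in F1 PNO than in F1 SAL (1.38 against 2.57 FPKM, limma adjusted p = 0.265), in F2 PNO than in F2 SAL (1.24 against 2.755, limma adjusted p = 0.408) and in F2 IUO than in F2 SAL (1.58 against 2.755, limma adjusted p = 0.567). Between F2 IUO and F2 SAL the somatostatin receptor Sstr2 passed as higher, 8.83 against 4.97 FPKM, with groups that did not overlap (limma adjusted p = 0.251, 5.11% of all genes not overlapping). Between F1 IUO and F1 PNO, 1 partner passed as higher and 2 as lower, while 7.08% of all genes passed the rule. These were the somatostatin receptor Sstr1 (5.285 against 3.155 FPKM, limma adjusted p = 0.207) and the neuropeptide Y receptors Npy5r (0.370 against 1.295, limma adjusted p = 0.171) and Npy1r (2.65 against 4.26, limma adjusted p = 0.230). Npy5r was also lower by the rule in F1 IUO than in F1 SAL (1.10 FPKM, limma adjusted p = 0.999). No partner had an adjusted p under 0.05 in any of these comparisons. The guanylate cyclase subunits Gucy1a1 and Gucy1b1, through which nitric oxide acts in projection neurons, were well expressed, at means of 21.9 and 48.6 FPKM, and neither passed the rule in any comparison.

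Pvalb (ENSRNOG00000006471), the calcium buffer of fast-spiking interneurons, was the most variable marker and passed the rule in no comparison with all libraries and no replicate block. It stood at 23.82, 17.97, 11.89 and 6.72 FPKM in F1 SAL, at 5.84, 15.12, 52.58 and 20.80 in F1 IUO and at 16.78, 9.54, 31.28 and 12.27 in F1 PNO. In F2 it stood at 30.11, 5.48, 26.40 and 22.73 FPKM in SAL, at 14.75, 53.23, 24.04 and 17.71 in IUO and at 98.26, 18.11, 40.42 and 12.71 in PNO. The highest value, in F2 PNO replicate 1, came from a library poor in cortex markers, and in F1 IUO, F2 IUO and F2 PNO 1 high library lay well above the other 3. F1 SAL replicates 2 and 3, also poor in cortex markers, held 17.97 and 11.89 FPKM. Over the 24 libraries Pvalb had r = -0.266 with the cortex markers (permutation p = 0.209, adjusted p = 0.449). The F2 PNO mean of 42.4 ± 39.1 was 2.43-fold that of F1 PNO, 17.5 ± 9.68, with a log2 difference of 0.97 (SE 0.612, limma adjusted p = 0.948). Without F2 PNO replicate 4 it was 1.40 and passed the rule (limma adjusted p = 0.738), as did the difference between F2 SAL and F1 SAL without F2 SAL replicate 2, at 0.94 (limma adjusted p = 0.622). The genes most like Pvalb over the libraries were Mobp (r = 0.864), a myelin gene, Gpr37 (r = 0.841), an oligodendrocyte receptor, and Apod (r = 0.839), the lipid carrier apolipoprotein D. Of the 6 listed partners of fast-spiking cells, 5 were tested. The neuregulin receptor Erbb4 passed as lower in F1 PNO than in F1 SAL (0.975 against 1.54 FPKM, limma adjusted p = 0.324), in F2 IUO than in F1 IUO (0.753 against 1.955, limma adjusted p = 0.236) and in F2 SAL than in F1 SAL (0.998 against 1.54, limma adjusted p = 0.569), and as higher in F1 IUO against its F1 PNO level (limma adjusted p = 0.220). Syt2, a synaptotagmin of fast terminals, passed as lower in F2 IUO than in F1 IUO (2.46 against 4.51 FPKM, limma adjusted p = 0.251). The potassium channels Kcnc1 and Kcnc2, which allow fast spiking, passed in no comparison.

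Cck (ENSRNOG00000019321), which encodes cholecystokinin and is also strongly expressed by cortical pyramidal cells, was higher in F2 IUO than in F2 SAL by the rule. It stood at 81.16, 141.25, 107.97 and 107.69 FPKM in F2 SAL and at 201.87, 220.59, 101.88 and 170.40 in F2 IUO. F2 IUO replicate 3 lay among the SAL values, and the other 3 lay above all of them. The means were 174 ± 52.2 and 109.5 ± 24.6 FPKM (SD, n = 4), a 1.59-fold ratio, with a log2 difference of 0.63 (SE 0.247), an unadjusted limma p of 0.0293 and an adjusted p of 0.567 (0.241 to 0.911 over the alternatives, exact permutation p = 0.114). Cortex markers moved with it: 5 of the 7 passed the rule as higher in F2 IUO, among them Neurod6 (23.4 against 9.31 FPKM), and their summed level was 188.62 to 369.98 FPKM in F2 IUO and 137.86 to 234.21 in F2 SAL, with Emx1 at 0 in some libraries and no other of the 7 at 0. Between these groups 4.19% of all genes passed the rule. With the cortex markers as a covariate the log2 difference in Cck was 0.23 (unadjusted limma p of 0.498). Without F2 IUO replicate 1, 2 or 4 or F2 SAL replicate 1, 3 or 4 the difference was 0.50 to 0.64 and its unadjusted p was above 0.05. In the other groups Cck ran from 10.43 to 177.59 FPKM in F1 SAL, 75.04 to 197.54 in F1 IUO, 114.86 to 176.27 in F1 PNO and 58.95 to 156.93 in F2 PNO.

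Over the 24 libraries Cck followed the cortex markers, with r = 0.824 (permutation p = 2e-05, adjusted p = 0.0009) and rho = 0.623 (permutation p = 0.00161, adjusted p = 0.0322). Centred on group means r was 0.792 (permutation p = 0.00279, adjusted p = 0.0335), and without the 2 libraries farthest from the median of Cck it was 0.636. The gene for the vesicular glutamate transporter of cortical neurons, Slc17a7, was among the 3 genes most like Cck (r = 0.904), with Galnt9 (r = 0.910) and Rtn4rl2 (r = 0.888). The 10.43 FPKM of F1 SAL replicate 3, the lowest Cck value, came from the library with the lowest cortex markers.

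**Figure D3:**
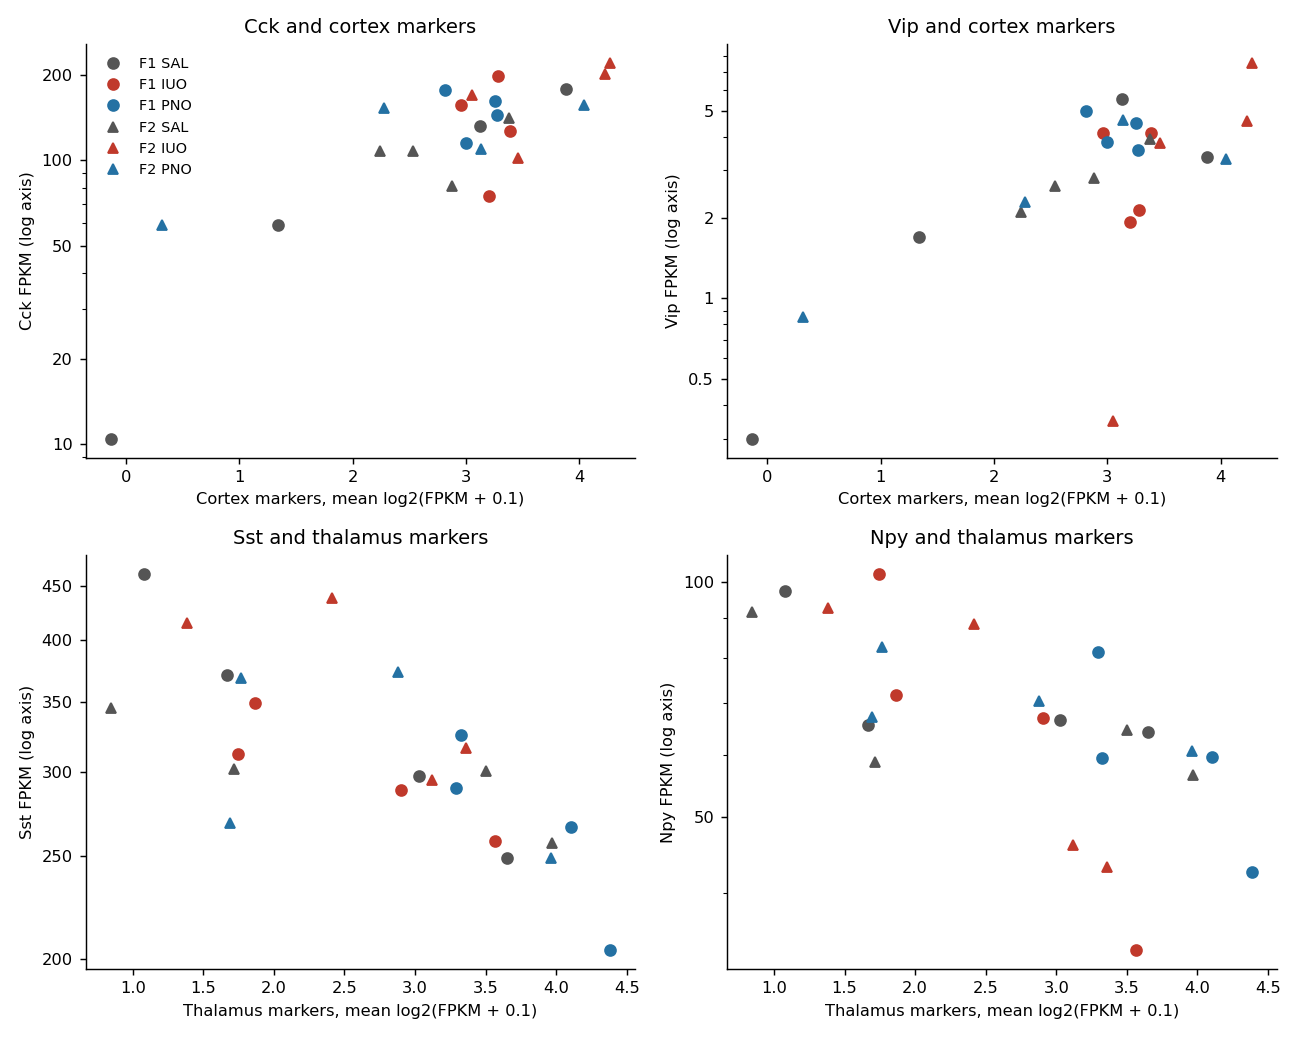
FPKM (log axis) of Cck and Vip against the mean log2(FPKM + 0.1) of 7 cortex markers, and of Sst and Npy against that of 6 thalamus markers, with 1 point per library. Cck and Vip were lowest where cortex markers were low, except for 1 F2 IUO library at 0.35 FPKM of Vip, and Sst and Npy were lower in libraries with more thalamus markers.

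Vip (ENSRNOG00000018808), the peptide of a small class of interneurons that mostly contact other interneurons, passed the rule in no comparison. It stood at 5.55, 1.70, 0.30 and 3.36 FPKM in F1 SAL, at 1.92, 4.15, 4.15 and 2.14 in F1 IUO and at 3.84, 5.00, 4.51 and 3.56 in F1 PNO. In F2 it stood at 2.81, 3.92, 2.62 and 2.09 FPKM in SAL, at 4.60, 7.55, 3.78 and 0.35 in IUO and at 0.85, 4.64, 2.28 and 3.30 in PNO. The SAL values of F1 enclosed the values of both oxy groups of F1, so no shift by treatment could be read. Vip followed the cortex markers as well, with r = 0.710 (permutation p = 0.00093, adjusted p = 0.0112), rho = 0.532 (permutation p = 0.00849, adjusted p = 0.0661) and r = 0.776 without the 2 libraries farthest from its median. Vip and Cck followed each other, with r = 0.646 (permutation p = 0.0032, adjusted p = 0.0288), rho = 0.508 (permutation p = 0.0124, adjusted p = 0.0677) and r = 0.688 without those farthest from the median of Vip. Centred on group means, r was 0.638 (permutation p = 0.0190, adjusted p = 0.171). The 3 genes most like Vip were Cds1 (r = 0.824), Rap1gap2 (r = 0.820) and Bdnf (r = 0.804), the neurotrophin gene, which cortical neurons express. Among 8 listed partners, 7 were tested. Htr3a, the serotonin receptor of this lineage, passed as lower in F2 IUO (3.355 against 6.105 FPKM in SAL, limma adjusted p = 0.550) and in F2 PNO (3.275 FPKM, limma adjusted p = 0.374). Adarb2 passed as lower in F1 PNO than in F1 SAL (1.18 against 2.07 FPKM, limma adjusted p = 0.291) and in F2 IUO than in F1 IUO (0.703 against 2.42, limma adjusted p = 0.236), and as higher in F1 IUO against its F1 PNO level (limma adjusted p = 0.160). Cckar, a cholecystokinin receptor, was lower by the rule in F2 PNO than in F2 SAL (0.223 against 0.643 FPKM, limma adjusted p = 0.407), and Calb2, the calretinin gene, in F2 PNO than in F1 PNO (77.5 against 120.4 FPKM, limma adjusted p = 0.948).

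Chat (ENSRNOG00000025012), Slc5a7 (ENSRNOG00000010597) and Lhx8 (ENSRNOG00000028348) are the markers of cholinergic interneurons used here. Choline acetyltransferase makes acetylcholine, the Slc5a7 transporter takes up choline for it, and Lhx8 is a transcription factor that specifies these cells. Markers of cholinergic neurons of other regions were not compared as a list, so the part of such neurons in these values was not tested. Chat stood at 1.26, 4.50, 3.06 and 0.94 FPKM in F1 SAL, at 3.30, 3.52, 2.73 and 2.52 in F1 IUO and at 2.31, 1.77, 2.35 and 1.99 in F1 PNO. All F1 IUO values lay above all F1 PNO values, while the F1 SAL values lay above, among and below them. Between F1 IUO and F1 PNO, 10.5% of all genes did not overlap. The means of 3.02 ± 0.470 and 2.11 ± 0.275 (2.105 before rounding; SD, n = 4) differed by 1.43-fold, with a log2 difference of 0.50 (SE 0.189), an unadjusted limma p of 0.0265 and an adjusted p of 0.240 (0.195 to 0.796 over the alternatives, exact permutation p = 0.0286). This is under the 1.5-fold of the rule, and with the thalamus markers as a covariate the difference was 0.16 (unadjusted limma p of 0.499). The 4 left-out libraries that took the unadjusted p to 0.05 or above were F1 IUO replicates 1 and 2 and F1 PNO replicates 2 and 4, with differences of 0.42 to 0.47.

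In F2, Chat stood at 3.01, 0.81, 5.16 and 4.85 FPKM in SAL, at 0.15, 1.09, 2.80 and 2.93 in IUO and at 1.10, 1.49, 1.80 and 0.88 in PNO. The 4 PNO values lay under 3 of the SAL values and above F2 SAL replicate 2. The F2 PNO mean of 1.32 ± 0.409 was 2.62-fold lower than the SAL mean of 3.46 ± 2.004 FPKM (SD, n = 4), with a log2 difference of -1.09 (SE 0.539), an unadjusted limma p of 0.0720 and an adjusted p of 0.489. Without F2 SAL replicate 2 the difference was -1.66 (unadjusted limma p of 0.000963, adjusted p = 0.337). Between F2 PNO and F1 PNO, Chat was 1.598-fold lower, with a log2 difference of -0.67 (SE 0.271), an unadjusted limma p of 0.0338 and an adjusted p of 0.948 (0.738 to 1 over the alternatives, exact permutation p = 0.0571). The groups overlapped by 1 library of F2 PNO, replicate 3 at 1.80 FPKM. With the thalamus markers as a covariate it was -0.40 (unadjusted limma p of 0.267). Without F1 PNO replicate 1, 3 or 4 or F2 PNO replicate 1 or 4 it was -0.70 to -0.51, with an unadjusted p above 0.05.

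Slc5a7 and Lhx8 passed the rule in no comparison. Slc5a7 stood between 1.22 and 6.46 FPKM in F1 SAL, 1.96 and 4.46 in F1 IUO, 2.45 and 4.4 in F1 PNO, 1.16 and 5.81 in F2 SAL, 0.63 and 4.26 in F2 IUO and 1.35 and 3.13 in F2 PNO. Lhx8 stood between 3.79 and 13.6 FPKM in F1 SAL, 6.42 and 9.09 in F1 IUO, 5.22 and 9.63 in F1 PNO, 5.45 and 12.8 in F2 SAL, 1.53 and 17.4 in F2 IUO and 1.90 and 8.62 in F2 PNO. The SAL and F2 IUO ranges were wider than those of F1 IUO and F1 PNO. In F2 PNO against SAL the log2 difference was -0.46 for Slc5a7 (SE 0.471, limma adjusted p = 0.725) and -0.83 for Lhx8 (SE 0.479, limma adjusted p = 0.547). F2 IUO replicate 1 held the lowest value of all 24 libraries for Chat (0.15 FPKM), Slc5a7 (0.63) and Lhx8 (1.53) together. The same library had the lowest mean log2(FPKM + 0.1) of projection neuron markers of all 24, at 4.67. Its means for cortex and choroid plexus markers were high, at 4.23 and 5.33. The part of this tissue make-up in the cholinergic values was not tested.

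The cholinergic markers were the most tightly linked set among the 10. Chat and Lhx8 had r = 0.847 (permutation p = 1e-05, which is the smallest that the permutations can give, adjusted p = 0.00045) and rho = 0.796 (permutation p = 1e-05, adjusted p = 0.00045). Chat and Slc5a7 had r = 0.818 (permutation p = 2e-05, adjusted p = 0.00045) and rho = 0.772 (permutation p = 4e-05, adjusted p = 0.0009). Slc5a7 and Lhx8 had r = 0.720 (permutation p = 0.00015, adjusted p = 0.00225) and rho = 0.670 (permutation p = 0.00039, adjusted p = 0.00506). Without the 2 libraries farthest from the median these were 0.766, 0.670 and 0.584, and centred on group means they were between 0.711 and 0.862, with adjusted permutation p values between 0.00607 and 0.0441. The genes most like Chat were Prima1 (r = 0.916), which anchors acetylcholinesterase to the membrane, and Ngfr (r = 0.854), the low-affinity nerve growth factor receptor, before Lhx8. The gene most like Lhx8 was Slc18a3 (r = 0.879), the vesicular acetylcholine transporter, followed by Ngfr (r = 0.875). The gene most like Slc5a7 was Chat, followed by Ngfr (r = 0.758) and Stac2 (r = 0.728).

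**Figure D4:**
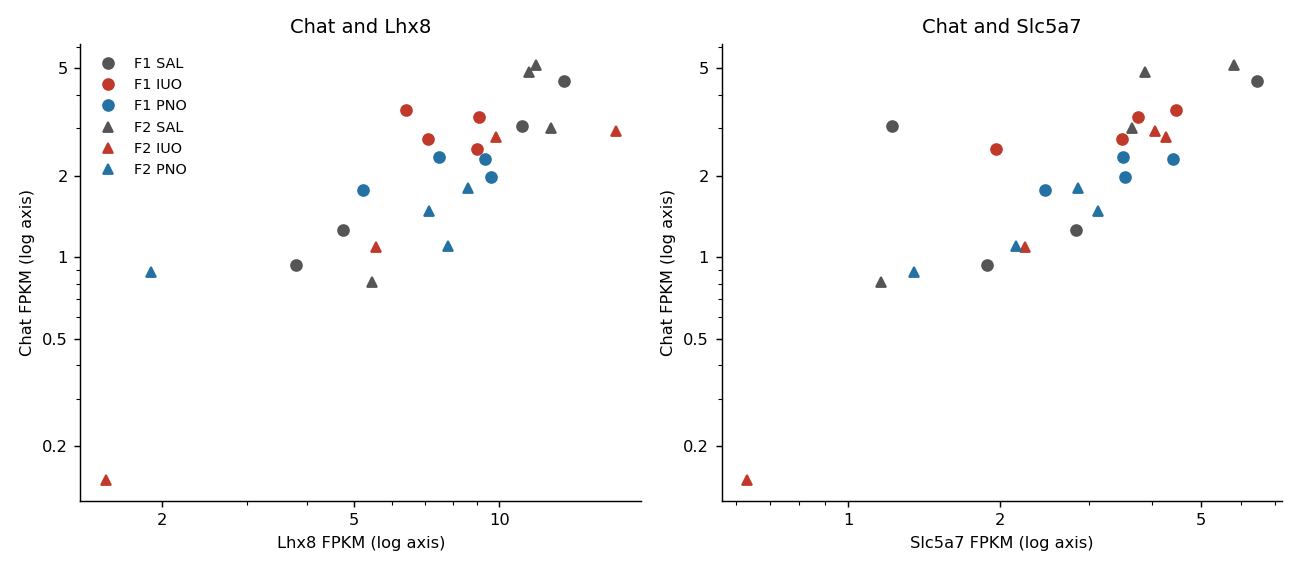
FPKM of Chat against that of Lhx8 (left) and of Slc5a7 (right), all on log axes, with 1 point per library, circles for F1 and triangles for F2. The 3 genes fell along a line, with F2 IUO replicate 1 at the lower end and F1 SAL and F2 SAL libraries at both ends. F2 IUO replicate 1 was also the library lowest in projection neuron markers.

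All 9 listed cholinergic partners were tested. Between F2 PNO and F2 SAL, 3 of them passed the rule as lower and 0 as higher. Of all genes, 4.54% passed it in this comparison, and 60.5% of those were lower. Among the 3 were Slc10a4, a vesicular transporter of cholinergic neurons (11.8 against 24.4 FPKM, limma adjusted p = 0.372) and Slc18a3 (3.88 against 7.59, limma adjusted p = 0.443). The median log2 difference of the 9 was -0.80 (-0.795 before rounding), beside -0.08 over all genes tested. Between F2 IUO and F2 SAL the median was -0.53, and 1 of the 9 passed, Slc17a8, the vesicular glutamate transporter that these neurons also carry (0.700 against 1.355 FPKM, limma adjusted p = 0.586), which was also lower by the rule than in F1 IUO (1.58 FPKM, limma adjusted p = 0.271). In F1 0 of the 9 passed between IUO and SAL, PNO and SAL or IUO and PNO. Between generations the median of the 9 was 0.525 for F2 SAL against F1 SAL, beside -0.018 over all genes. It was -0.153 for F2 PNO against F1 PNO, beside -0.056, and -0.139 for F2 IUO against F1 IUO, beside -0.09. The part of the F2 SAL level in the lower F2 PNO values was not tested. The smallest interaction p among the 10 markers was that of Chat for IUO and SAL, with an interaction of -1.74 (SE 1.03, unadjusted limma p of 0.109, adjusted p = 0.924). Across the 3 interactions 0 of 10 markers had an unadjusted p under 0.05, beside 5.15% of all genes in the IUO and SAL interaction, 4.06% in that of PNO and SAL, and 5.76% in that of IUO and PNO.

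Th (ENSRNOG00000020410), tyrosine hydroxylase, makes the precursor of dopamine and marks a small class of striatal neurons, and is also made in the midbrain cells whose axons fill the NAc and in parts of the hypothalamus. It was the lowest of the 10 markers. It stood at 1.10, 1.53, 1.82 and 2.14 FPKM in F1 SAL, at 0.79, 1.49, 1.42 and 2.40 in F1 IUO and at 1.02, 1.30, 1.38 and 1.12 in F1 PNO. In F2 it stood at 1.5, 1.47, 1.64 and 2.41 FPKM in SAL, at 2.20, 2.94, 4.84 and 1.11 in IUO and at 1.89, 1.69, 1.72 and 1.51 in PNO. The F2 PNO values lay above all F1 PNO values, the only such pair for Th, and 3.34% of all genes did not overlap in this comparison. The log2 difference was 0.47 (SE 0.223), with an unadjusted limma p of 0.0632, an adjusted p of 0.948 and an exact permutation p of 0.0286, and the 1.41-fold ratio was under the fold of the rule. The F2 IUO mean was 2.77 FPKM, beside 1.755 in F2 SAL, 1.70 in F2 PNO and 1.525 in F1 IUO. Th passed the rule against none of these (limma adjusted p of 0.721, 0.872 and 0.471). Without F2 IUO replicate 4, the lowest of its group, it passed as higher against each. The log2 differences were then 0.84, 0.86 and 1.10 (limma adjusted p of 0.612, 0.755 and 0.360). In one fit of all 24 libraries it passed against F1 IUO (limma adjusted p = 0.269).

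The defining markers of midbrain dopamine neurons were at or near 0. Slc6a3, the dopamine transporter, was at most 0.270 FPKM, En1 at most 0.3, Foxa1 at most 0.210 and Pitx3 at most 1.11, and each was at 0 in some libraries. Dbh, which marks noradrenergic cells, was at most 0.810 FPKM. Th followed the hypothalamus markers, with r = 0.644 (permutation p = 0.00053, adjusted p = 0.00795), rho = 0.569 (permutation p = 0.00424, adjusted p = 0.0509) and r = 0.439 without the 2 libraries farthest from the median of Th. The 7 hypothalamus markers summed to 43.77 to 158.43 FPKM in F1 IUO, 3.99 to 12.7 in F1 PNO, 10.47 to 57.29 in F1 SAL, 18.95 to 252.96 in F2 IUO, 8.9 to 102.89 in F2 PNO and 7.37 to 262.36 in F2 SAL, with Pmch, Otp, Sim1 and Agrp at 0 in some libraries. The part of hypothalamic tissue in the level of Th was not tested. Of the 8 listed partners of Th, 6 were tested between F2 IUO and F2 SAL and 5 between F2 PNO and F2 SAL. Ddc, the enzyme that follows it in dopamine synthesis, passed as lower in F2 IUO (1.18 against 2.0725 FPKM in SAL, limma adjusted p = 0.585) and in F2 PNO (1.04 FPKM, limma adjusted p = 0.365), and neither group overlapped SAL (7.01% of all genes for PNO). Nr4a2, a transcription factor of dopamine neurons that the cortex also expresses, passed as higher in F2 IUO (10.2 against 4.46 FPKM, limma adjusted p = 0.495). The genes most like Th were Cyp2d4 (r = 0.752), Zbtb7c (r = 0.75) and Mafk (r = 0.743).

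**Figure D5:**
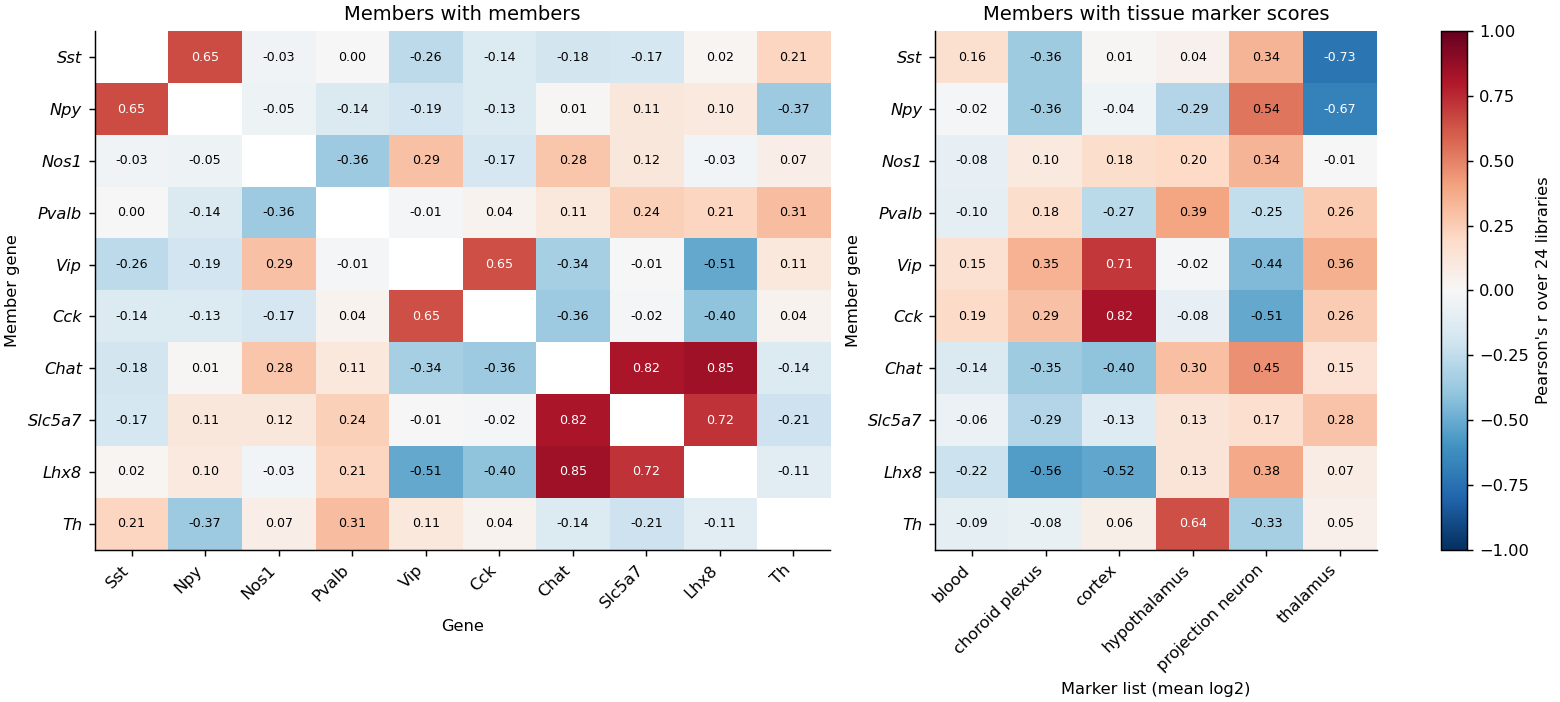
Pearson's r over 24 libraries of log2(FPKM + 0.1) between the 10 markers (left) and between each marker and the mean of 6 lists of tissue markers (right), from -1 in blue to 1 in red. The pairs within the cholinergic set, Sst with Npy and Vip with Cck stood out in red, Cck and Vip followed cortex markers, and Sst and Npy were opposite to thalamus markers.

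Of the 45 pairs of markers, 5 had an adjusted permutation p of r under 0.05, all positive and all named above, and 40 did not. Each of the 5 pairs lies within the markers listed for 1 class of interneuron or within the pair of Vip and Cck. By rho, 7 pairs passed, 3 of them negative: Vip with Lhx8 (rho = -0.674, adjusted permutation p = 0.00506), Cck with Lhx8 (rho = -0.575, adjusted permutation p = 0.0302) and Cck with Chat (rho = -0.551, adjusted permutation p = 0.0383). For these the r was -0.513, -0.404 and -0.364, with adjusted permutation p of 0.0897, 0.380 and 0.380. Of the 60 relations with tissue markers, 5 passed, namely Cck and Vip with cortex, Sst and Npy with thalamus, and Th with hypothalamus. In this main setting Nos1, Pvalb, Chat, Slc5a7 and Lhx8 had no relation to tissue markers at an adjusted p of r under 0.05. The nearest was Lhx8 with choroid plexus markers (r = -0.560, permutation p = 0.0054, adjusted p = 0.0540, rho = -0.282, permutation p = 0.181). With a pseudocount of 1 and with upper-quartile rescaling, 8 and 7 relations passed. The r of Lhx8 with choroid plexus markers was then -0.574 and -0.592. With cortex markers it was -0.560 and -0.525, beside -0.518 in the main setting.

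The transcription factors that set up interneurons from the ganglionic eminences were compared as a list of 15, of which 14 were tested. Between F1 IUO and F1 PNO, 5 of them passed the rule as higher and 0 as lower, with a median log2 difference of 0.53 beside 0.03 over all genes. Of all genes, 7.08% passed it in this comparison, and 39.5% of those were lower. Nr2f2 stood at 13.2 against 7.44 FPKM (limma adjusted p = 0.0884), Npas1 at 10.9 against 6.87 (limma adjusted p = 0.146), Lhx6, which directs the somatostatin and parvalbumin classes, at 4.31 against 2.13 (limma adjusted p = 0.177), and Sox6 at 2.82 against 1.65 (limma adjusted p = 0.188). In the same comparison 6 of 10 projection neuron markers passed as higher, their summed level being 865 to 1211 FPKM in F1 IUO and 559.0 to 778 in F1 PNO, with none of the 10 at 0. The vesicular GABA transporter Slc32a1, which all GABAergic neurons use, passed as well, at 113 against 74.4 FPKM (limma adjusted p = 0.135), and was lower by the rule in F1 PNO than in F1 SAL (117 FPKM, limma adjusted p = 0.293). Between F2 PNO and F2 SAL, Lhx6 (2.01 against 4.61 FPKM, limma adjusted p = 0.408) and Npas1 (6.42 against 10.9, limma adjusted p = 0.400) passed as lower. The part of the amount of striatal tissue in these values was not tested.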

How the data were processed

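NAc RNA of 24 P14 pups was sequenced in 6 groups of 4. The authors deposited FPKM values, 1 per gene and library, estimated with StringTie on a transcriptome merged over all samples and rounded to 0.01. The submitters' processing notes also name HISAT2, SAMtools and edgeR, and their versions and the genome build are not given in the sources used here. No counts were analysed, so no count model was run and the depth of a library is unknown.

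Groups were taken from the sample labels. Values were compared with limma 3.58.1 in R 4.3.3 (lmFit, eBayes with a trend, two-sided) on log2(FPKM + 0.1), which understates changes of low genes, for genes with at least 0.1 FPKM in 4 or more of the 8 libraries, or of the 16 for an interaction. The Benjamini-Hochberg adjustment ran over all genes tested. Exact permutation tests used all 70 splits of 4 against 4. Correlations over 24 libraries used 100000 permutations, adjusted over 45 pairs and 60 tissue relations, and were repeated without the 2 libraries farthest from the median of the first-named gene. Python 3.11.15 with pandas 2.3.3, numpy 2.4.6 and scipy 1.17.1 was used. limma was checked on simulated data. Alternatives were a pseudocount of 1, no filter, a filter of 1 FPKM, upper-quartile rescaling, one fit of 24 libraries, the replicate block, cortex or thalamus markers as a covariate, a 2-fold rule, each library left out and, chosen after seeing the data, the FPKM total as a covariate.

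The markers and gene lists were chosen with earlier results of these data known. All 10 markers were named, pairs with an unadjusted p under 0.05 were followed through the alternatives, at most 4 genes per list and comparison with the smallest p were named, and likeness was the 3 highest r among 13676 genes with a mean of at least 1 FPKM. Values of 2 genes that these rules would name are not reported here. Of 117 listed genes, 111 matched 1 identifier, 2 of them by older symbols. Cort, Nos1ap, Pthlh, Vipr1, Dlx6 and Hba-a2 were not analysed here. Promoter windows came from RefSeq. Libraries of the same group correlated at 0.891 to 0.960, and none of these 36 pairs was a duplicate.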

Additional observations from a re-analysis of the deposited data

Results flagged for a closer look

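Among the 60 sets of 4 libraries formed by the 10 markers and 6 groups, 1 held a library that stood apart from the other 3 by Dixon's criterion. Npy in F1 SAL replicate 4 was 97.28 FPKM, while the nearest of the other 3 was 66.55 FPKM, a gap of 0.934 of the range of the group. Chance gives about 1 such set in 20, or 3 of the 60. The same library held the highest Sst value of all 24, 462 FPKM, the highest Nos1 value, 8.08 FPKM, and low values of Chat (0.94 FPKM) and Lhx8 (3.79 FPKM). Its mean log2(FPKM + 0.1) was the lowest of F1 SAL for thalamus markers, at 1.08, and the highest for cortex markers, at 3.88. The part of these tissues in its values was not tested.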

How the results depend on the processing

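Of 136 refits of the 8 followed pairs of marker and comparison (17 alternatives each), 94 kept an unadjusted p under 0.05, 42 kept the direction but not that p, and 0 reversed. The count of markers past the rule moved as follows (first group/second group). In one fit of all 24 libraries it was 2 for F1 PNO/SAL, 0 for F1 IUO/PNO, 1 for F2 IUO/SAL, 2 for F2/F1 IUO and 0 for F2/F1 PNO. With a 2-fold rule it was 0 in these 5. In refits with a covariate the p was adjusted for it, but the fold of the rule stayed the ratio of the unadjusted group means of FPKM. Nos1 in F1 PNO/SAL was thus still counted with thalamus markers, at a log2 difference of -0.51. With thalamus markers as a covariate the count was 0 for F1 IUO/PNO and for F2/F1 PNO, and 2 for F2 PNO/SAL, with Chat added. With cortex markers it was 0 for F2 IUO/SAL and 2 for F2 PNO/SAL, with Lhx8 added. Without a filter it was 1 for F2 IUO/SAL. The interaction counts were 0, and became 1, 2 and 1 with cortex markers for IUO and SAL, PNO and SAL, and IUO and PNO. They became 1 with thalamus markers for IUO and SAL, and 1 with the FPKM total, chosen after seeing the data, for IUO and SAL and for IUO and PNO. Relations with tissue markers numbered 5 by r, 3 by rho and 8 with a pseudocount of 1. Leaving out each library, the counts ran from 0 to 1 (F1 IUO/SAL), 1 to 3 (F1 PNO/SAL), 1 to 2 (F1 IUO/PNO), 0 to 2 (F2 IUO/SAL), 0 to 3 (F2 PNO/SAL), 0 to 1 (F2 IUO/PNO), 0 to 1 (F2/F1 SAL), 0 to 2 (F2/F1 IUO), 0 to 2 (F2/F1 PNO), and 0 to 1, 0 to 2 and 0 to 1 for the interactions. The 3 for F1 PNO/SAL arose without F1 SAL replicate 1, with Vip and Th added, and the 3 for F2 PNO/SAL without F2 SAL replicate 2, with Chat and Slc5a7 added. The cause of these moves was not tested.

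Replicate numbers did not pair the libraries, since 4 of 36 pairs of same-numbered libraries deviated together at r above 0.1 and no comparison had all of its pairs above it. With the replicate block the count for F2 IUO/SAL was 1 (Nos1 there at an unadjusted limma p of 0.0544), Chat in F1 IUO/PNO and in F2/F1 PNO had an unadjusted limma p of 0.0539 and 0.0566, Pvalb in F2/F1 PNO passed the rule (0.97, p of 0.0491), and no other count of markers moved by more than 1.5 times. Depth is unknown, and low markers such as Th and Chat rest on FPKM rounded to 0.01.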
